A study of Mus musculus with 10 samples.

Results

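The LIM homeobox genes encode transcription factors that carry a pair of zinc-binding LIM domains beside a homeodomain. The 8 genes described here are Lhx1, Lhx2, Lhx5, Lhx6, Lhx8, Lhx9, Lmx1a and Isl1, taken by name from a count table of 53801 genes. The members were selected on earlier results of these data, among them the fold changes of Lhx9, Lhx2 and Lhx5 between the 2 cell populations. The differences between populations given for the members are therefore descriptions, and no test is offered for them as a group. Of the 8 members, 5 passed the expression filter of the test across all genes (Lhx2, Lhx5, Lhx6, Lhx9 and Isl1), and Lhx1, Lhx8 and Lmx1a did not.

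The populations compared were NG2+ cells, represented by 5 libraries, and GFAP+ cells, represented by another 5. All 10 libraries came from the dorsal brain of wild-type (WT) mouse embryos. The brains were targeted at embryonic day 12 with StarTrack, a set of reporter plasmids introduced by in utero electroporation to follow the progeny of progenitors, and the cells were sorted by flow cytometry at embryonic day 14. Cspg4 is the gene of the NG2 proteoglycan, and Gfap that of the intermediate filament GFAP, which is characteristic of astroglia. The labels give batch 1 for every library and do not say whether replicates came from separate embryos or from pools, so the p-values measure the spread between these libraries, which may be technical.

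In the developing forebrain the LIM homeobox factors act in largely separate territories. LIM domains bind the adaptor proteins Ldb1 and Ldb2, which join LIM homeodomain factors into larger complexes on DNA, and LIM-only proteins compete for the same adaptors. Lhx2 is the selector gene of cortical identity and restrains formation of the cortical hem, the signalling centre at the dorsal midline, and Lhx9 is its closest relative. Lhx1 and Lhx5 are known from Cajal-Retzius cells, from the hem region and from the diencephalon. Lmx1a marks the hem and the choroid plexus. Lhx6 and Lhx8 act in the medial ganglionic eminence, where cortical interneurons and cholinergic neurons arise, and Isl1 acts in the lateral ganglionic eminence and in striatal neurons.

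Library totals lay between 12945436 and 17569730 read counts. Reads of the 8 members made up 0.0342% to 0.0394% of the counts in the NG2 libraries, against 0.0434% to 0.0515% in the GFAP libraries, and Lhx2 supplied 90.6% to 96.6% of them in every library. NG2 replicate 5 stood apart: it held reads for 18903 genes, where the other 9 libraries held 22988 to 24444, and its log2 CPM correlated with theirs at r between 0.956 and 0.963, against 0.977 to 0.991 among the other 36 pairs. CPM here is the read count per 1000000 counts, scaled with edgeR's TMM factors. Cspg4 averaged 6.75 ± 1.47 CPM in NG2 libraries and 1.07 ± 0.356 CPM in GFAP libraries (SD, n = 5 each), with a log2 fold change of 2.64 (SE 0.30, edgeR adjusted p = 0.00256), and the exact permutation p was 0.00794, the smallest that 252 assignments of the libraries can give. Gfap had 6 reads over the 5 NG2 libraries and 10 over the 5 GFAP libraries (exact permutation p = 0.492), so at this depth its RNA does not check the second label. The cells are labelled as neural stem cells. Markers of neurons summed to between 6139 and 8934 CPM in NG2 libraries and between 4831 and 6245 CPM in GFAP libraries. Radial glia markers summed to between 981 and 1753 CPM in NG2 libraries and between 1523 and 2080 CPM in GFAP libraries. The lists hold different genes of unlike abundance, so their sums do not measure shares of cells.

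Lhx2 was the one abundant member, and the rest stood far below it. On the deposited FPKM scale, which divides counts by gene length, Lhx2 averaged 88.1 ± 11.3 FPKM over the 10 libraries (SD), 28.9 times the mean of the next gene. Lhx6 followed at 3.04 ± 1.20 FPKM and Isl1 at 1.94 ± 0.890 FPKM. Lhx6 was above Isl1 in 9 of the 10 libraries, the exception being NG2 replicate 5. Isl1 was above Lhx9 in all 10, on a scale that divides by 3959 bases for Isl1 and 9494 bases for Lhx9. Not divided by length, Lhx9 averaged 8.18 CPM and Isl1 7.67 CPM in GFAP libraries. In NG2 libraries Lhx9 averaged 2.36 CPM and Isl1 7.86 CPM.

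Lhx9 averaged 0.549 ± 0.377 FPKM and was above Lhx5 (0.290 ± 0.259 FPKM) in 9 libraries, the exception being NG2 replicate 2. Below Lhx9 the order did not hold beyond the spread between libraries. Lhx8 averaged 0.218 ± 0.187 FPKM, Lmx1a 0.147 ± 0.156 FPKM and Lhx1 0.144 ± 0.110 FPKM. Lhx5 exceeded Lhx8 in 5 of 10 libraries, Lhx8 exceeded Lmx1a in 7, and Lmx1a exceeded Lhx1 in 4.

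**Figure D1:**
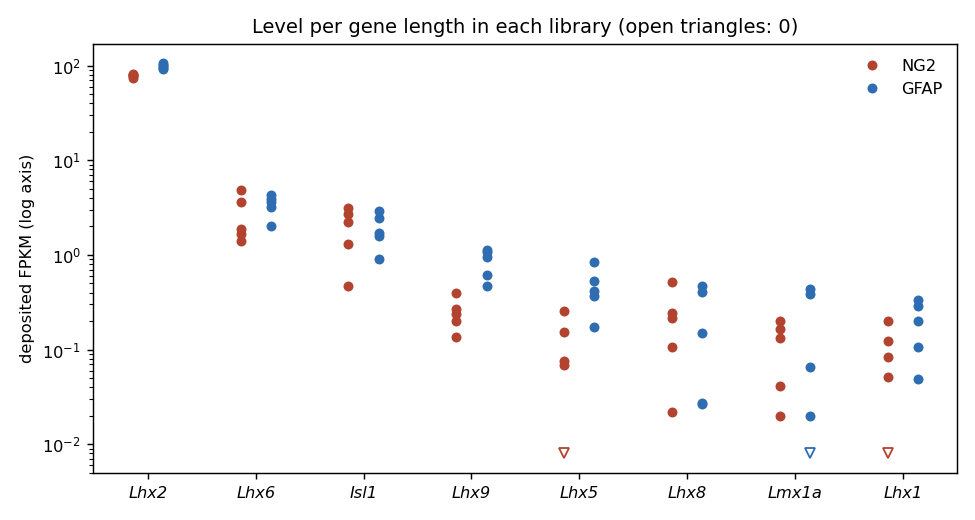
Level of each member per gene length in the 10 libraries, on a log10 axis of deposited FPKM, with NG2 libraries to the left of GFAP libraries for each gene and open triangles for libraries at 0. Lhx2 lies between 74.3 and 105 FPKM in all 10 libraries, and the 4 lowest members overlap one another.

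The cortical factor Lhx2 (ENSMUSG00000000247) lies on chromosome 2, from 38339281 to 38369733 on the plus strand of GRCm38. It had 347, 340, 357, 351 and 330 CPM in NG2 replicates 1 to 5, against 451, 437, 469, 422 and 408 CPM in GFAP replicates 1 to 5. Every NG2 library was below every GFAP library. The means were 345 ± 10.5 CPM in NG2 libraries and 437 ± 23.9 CPM in GFAP libraries (SD, n = 5 each), a log2 fold change of -0.34 (SE 0.08). Lhx2 was the steadiest member: its coefficient of variation was 3.04% among NG2 and 5.46% among GFAP libraries, and its 26607 reads in NG2 and 32547 in GFAP libraries make counting error small. It did not pass the threshold of 0.05 on edgeR's p adjusted over all tested genes.

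The start of Lhx2 is shown because this gene sets the level of the family here. The sequence, from RefSeq on GRCm38.p6, is the 250 bases just upstream of the annotated start, chr2:38339031-38339280 on the plus strand, 5′ to 3′, with each GGGCGG in capitals. This hexamer is the core of a GC box.
Lhx2 upstream: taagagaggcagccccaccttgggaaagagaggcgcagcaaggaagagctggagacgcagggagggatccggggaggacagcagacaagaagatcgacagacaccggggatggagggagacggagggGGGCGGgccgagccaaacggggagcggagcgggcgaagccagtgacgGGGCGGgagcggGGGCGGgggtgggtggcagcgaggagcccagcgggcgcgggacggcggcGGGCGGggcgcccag
GGGCGG, counted on both strands, occurred 4 times in this window and at least once in 32.7% of all 32851 RefSeq promoter windows of the same length. The window held 25 CpG dinucleotides and 72.8% G and C bases, where the medians of all windows were 6 and 52.4%. It held no ATTA, the core letters to which homeodomains bind, on either strand, while 54.9% of all windows held at least 1. A second RefSeq window of Lhx2, before a start inside the gene, held no GGGCGG. A match of this kind describes the letters and shows no binding. RefSeq windows were matched by symbol for 7 of the 8 members.

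Reads of Lhx2 cannot be assigned without doubt, since the strand setting of the counting is not given in the sources used here. The antisense gene Gm27197 overlaps Lhx2 by 960 bases and had 7.28 to 10.9 CPM in NG2 libraries, against 6.89 to 11.1 CPM in GFAP libraries. Both ranges are small beside the 330 CPM of Lhx2 in its lowest library. A second antisense gene, Gm13584, had 28 reads in NG2 libraries and 70 in GFAP libraries.

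Lhx9 (ENSMUSG00000019230; chromosome 1, 138825186 to 138848577, minus strand), the relative of Lhx2 that is known from the early pallium and the diencephalon, was the member with the clearest gap between populations. It had 1.30, 2.27, 2.57, 3.76 and 1.92 CPM in NG2 replicates 1 to 5, against 10.4, 5.97, 9.11, 10.9 and 4.56 CPM in GFAP replicates 1 to 5. All NG2 libraries were below all GFAP libraries, although the highest NG2 library, replicate 4, came close to the lowest GFAP library, replicate 5. These values rest on 183 reads in NG2 libraries and 608 reads in GFAP libraries.

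Lhx9 averaged 2.36 ± 0.915 CPM in NG2 libraries and 8.18 ± 2.79 CPM in GFAP libraries (SD, n = 5 each). The log2 fold change was -1.79 (SE 0.32), and Lhx9 fell past the threshold in edgeR's quasi-likelihood test. Lhx9 was the 1 member called among the 5 tested. Over all 16187 tested genes 12 were called lower in NG2 libraries, a share of 0.0741%, and 12 higher, a share of 0.0741%, or 0.148% in all. Because the gene was among those that led to the choice of this family, nothing is read from that count. The call held without NG2 replicate 4 or NG2 replicate 5, and it was lost when any other single library was left out, with log2 fold changes between -2.01 and -1.63.

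The Lhx9 sequence is shown because Lhx9 is the member that was called. RefSeq gives 1 window for Lhx9, and it lies before an alternative start inside the deposited gene, which begins further upstream at 138848577, so it is not the counterpart of the Lhx2 window. Shown is the RefSeq sequence on GRCm38.p6 at chr1:138842465-138842694, minus strand, 5′ to 3′, the first 230 bases of the 250-base window before that start, since the last bases lie in an annotated 5′ UTR. Capitals mark ATTA or, on the other strand, TAAT.
Lhx9 before the alternative start: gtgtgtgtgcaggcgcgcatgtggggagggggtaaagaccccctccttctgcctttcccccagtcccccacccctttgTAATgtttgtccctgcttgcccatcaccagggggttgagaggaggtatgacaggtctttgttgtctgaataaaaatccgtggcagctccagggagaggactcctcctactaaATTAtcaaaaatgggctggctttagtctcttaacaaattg
ATTA occurred 2 times and GGGCGG did not occur on either strand. The full window held 4 CpG dinucleotides and 53.6% G and C bases, beside medians of 6 and 52.4% over all windows. Neither the longer homeodomain motif TAATTA, present in 4.84% of all windows, nor TATAAA, present in 12.4%, was found on either strand.

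Set against Lhx2 within each library, Lhx9 stood lower in NG2 cells. The ratio of Lhx9 to Lhx2 FPKM was 0.316% ± 0.118 in NG2 libraries and 0.862% ± 0.286 in GFAP libraries (SD, n = 5 each). The highest NG2 library reached 0.497% and the lowest GFAP library 0.517%. This ratio does not depend on how libraries were scaled. Transcripts of Lhx2 and Lhx9 in GENCODE M21 share no identical run longer than 17 bases, against a read length of 150 bases, and the longest run shared by any pair of members was 65 bases, between Lhx5 and Lhx9.

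Over the 5 members that passed the filter, 2 had every NG2 library below every GFAP library (Lhx2 and Lhx9), while 1.76% of all tested genes did. None had every NG2 library above every GFAP library, where 1.52% of all tested genes did. Over all 8 members, the ratio of mean CPM in NG2 to mean CPM in GFAP libraries was under 1 for 6, and it was under 1 for 53.1% of all genes with at least 1 read. In the authors' deposited table the log2 fold change was -0.33 for Lhx2 and -1.78 for Lhx9. Both had adjusted p under 0.05, as had, in that direction, 0.452% of its 28533 genes with a p-value. No other member passed in that table. DESeq2's Wald test called the same 2 members lower. Its fold changes equalled the deposited ones, at -0.328983 for Lhx2 and -1.77766 for Lhx9, so it adds no separate result. Over the 13121 genes with an adjusted p, DESeq2 called 1.01% lower and 2.61% in either direction.

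**Figure D2:**
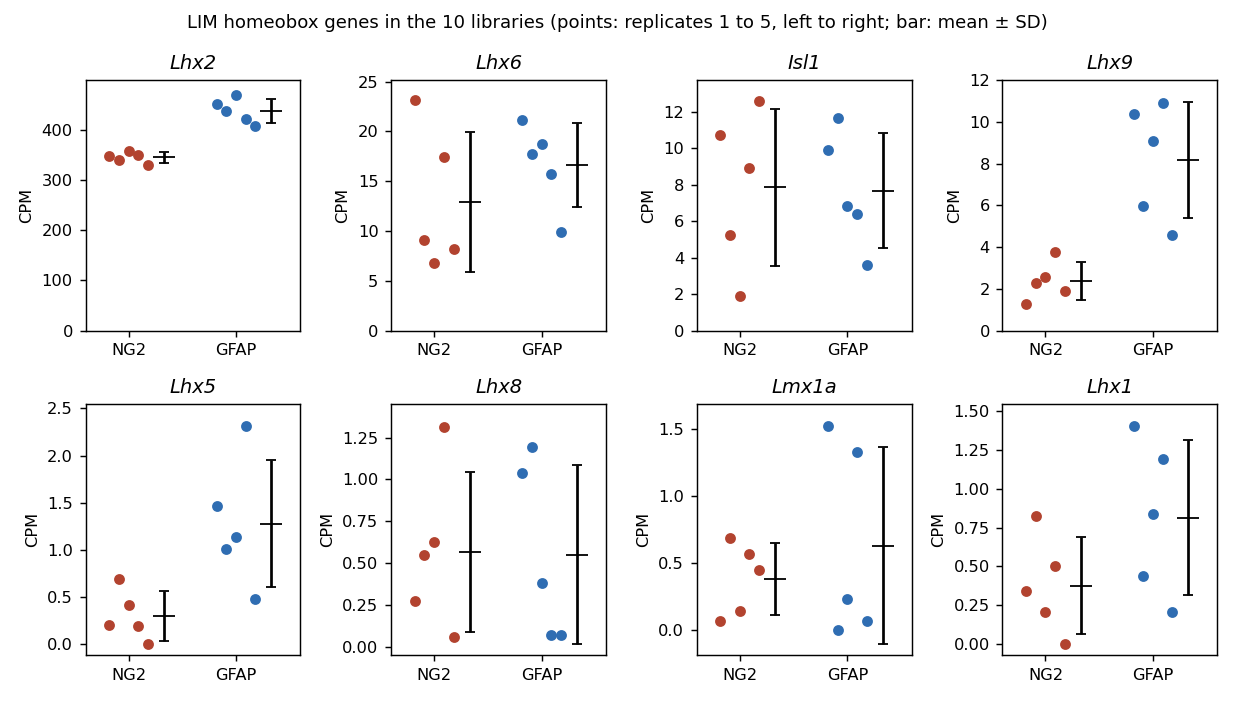
CPM of each member in NG2 libraries (left, red) and GFAP libraries (right, blue), 1 point for each replicate from 1 to 5 and a bar for the mean ± SD, with a separate axis for each gene. The groups do not overlap for Lhx2 and Lhx9, and they overlap for the other 6 members.

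Lhx5 and Lhx1 are near relatives. Lhx5 (ENSMUSG00000029595; chromosome 5, 120431699 to 120441223, plus strand) had 3, 10, 6, 3 and 0 reads in NG2 replicates 1 to 5, against 24, 16, 15, 33 and 7 reads in GFAP replicates 1 to 5. NG2 replicate 2 exceeded GFAP replicate 5, so the groups overlapped. Its means were 0.300 ± 0.263 CPM in NG2 libraries and 1.28 ± 0.677 CPM in GFAP libraries (SD, n = 5 each). By counting error alone the 0 in NG2 replicate 5 allows up to 0.169 CPM, the level of 3 reads in that library. The level could be higher, since amplified reads are not independent and that library held reads for the fewest genes, 18903.

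The log2 fold change of Lhx5 was -2.09 (SE 0.67), and it did not pass the threshold. Lhx5 entered the test through 4 GFAP libraries and 1 NG2 library above the filter's level, so a difference of this sign was built into its passing. The antisense gene Gm27199 overlaps Lhx5 by 69 bases and had 9 reads in NG2 libraries and 24 in GFAP libraries, which leaves some reads of Lhx5 uncertain.

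Lhx1 (ENSMUSG00000018698; chromosome 11, 84518284 to 84525535, minus strand) had 5, 12, 3, 8 and 0 reads in NG2 replicates 1 to 5, against 23, 7, 11, 17 and 3 reads in GFAP replicates 1 to 5. It stayed under the filter. Summed over libraries and scaled by depth, its reads in NG2 were 0.443 times those in GFAP, with a 95% interval of 0.272 to 0.703 that covers counting error only and not the spread between libraries. The FPKM ratio of Lhx5 to Lhx1 was between 158% and 353% in the 5 GFAP libraries. In the 4 NG2 libraries with reads it was between 56.8% and 303%. Those NG2 ratios rest on at most 12 reads of a gene in a library, so no order of the pair is read from them.

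Lmx1a (ENSMUSG00000026686; chromosome 1, 167689237 to 167848741, plus strand), the factor of the hem and choroid plexus, came mainly from a pair of libraries. It had 1, 10, 2, 9 and 8 reads in NG2 replicates 1 to 5, against 25, 0, 3, 19 and 1 reads in GFAP replicates 1 to 5. Of the 48 reads of the GFAP group, 25 came from replicate 1 and 19 from replicate 4, and the other 3 GFAP libraries were below the 3 higher NG2 libraries. The depth-scaled ratio of reads, NG2 over GFAP, was 0.603 (95% interval 0.369 to 0.971, counting error only).

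GFAP replicates 1 and 4 were also the highest libraries for Lhx1, Lhx5 and Lhx9. In the same libraries the markers of hem and choroid plexus summed to 317 CPM in GFAP replicate 1 and 171 CPM in GFAP replicate 4, against 26.2 to 89.6 CPM in the other GFAP libraries and 25.6 to 66.4 CPM in NG2 libraries. Ttr, the transthyretin gene of the choroid plexus, made up most of that sum in GFAP libraries, at a mean of 88.0 of 127 CPM. In NG2 libraries Ttr averaged 10.8 of 40.4 CPM. Rspo3, of the same list, averaged 19.6 CPM in NG2 libraries and 16.2 CPM in GFAP libraries. Ttr ranged from 0.0564 to 40.6 CPM in NG2 libraries and from 0 to 251 CPM in GFAP libraries. Cajal-Retzius markers summed to 96.5 CPM in GFAP replicate 1 and 83.9 CPM in GFAP replicate 4, against 57.9 to 65.2 CPM in the other GFAP libraries and 33.9 to 61.3 CPM in NG2 libraries. Elsewhere the order of the libraries differed between these sums and the members. NG2 replicate 5 had the 61.3 CPM of Cajal-Retzius markers, with 0 reads of Lhx1 and of Lhx5. That library held reads for the fewest genes, 18903, so the 0 reads leave the level of Lhx1 and Lhx5 uncertain. NG2 replicate 1 had 66.4 CPM of hem and choroid plexus markers with 1 read of Lmx1a, and GFAP replicate 3 had 89.6 CPM with 3 reads. The log2 fold change of Lhx9 was -1.69 without GFAP replicate 1 and -1.66 without GFAP replicate 4, and it was not called in either fit (edgeR adjusted p = 0.138 and 0.148). In bulk libraries fewer cells of a type and less RNA per cell cannot be told apart, and the part of these cells in the levels of the members was not tested.

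Lhx6 and Lhx8 are the members of the medial ganglionic eminence, and both varied as much within a population as between populations. Lhx6 (ENSMUSG00000026890; chromosome 2, 36081953 to 36105408, minus strand), which is required for the migration and fate of cortical interneurons, had 23.1, 9.09, 6.75, 17.4 and 8.17 CPM in NG2 replicates 1 to 5, against 21.1, 17.8, 18.7, 15.7 and 9.87 CPM in GFAP replicates 1 to 5. The NG2 libraries fell into a high pair, replicates 1 and 4, inside or above the GFAP range, and 3 libraries below it. The log2 fold change was -0.37 (SE 0.31) and did not pass the threshold.

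Markers of the medial ganglionic eminence and of interneurons summed to 307 CPM in NG2 replicate 2 and 278 CPM in NG2 replicate 3, the lowest of all libraries, against 473 to 574 CPM in the GFAP libraries. NG2 replicate 5 had a sum of 540 CPM, inside the GFAP range, although its Lhx6 was low. Of the 17 genes of that list that were tested, 0 were called in either direction by edgeR, 3 had an unadjusted p under 0.05, and DESeq2 and voom called 1 each. Their median log2 fold change was -0.16, beside -0.01 over all tested genes. Sox6, a factor of maturing interneurons that is also active in cortical progenitors, averaged 68.6 ± 14.7 CPM in NG2 libraries and 107 ± 8.43 CPM in GFAP libraries (SD, n = 5 each).

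Lhx8 (ENSMUSG00000096225; chromosome 3, 154306294 to 154330659, minus strand), a factor of forebrain cholinergic neurons, had 4, 8, 9, 21 and 1 reads in NG2 replicates 1 to 5, against 17, 19, 5, 1 and 1 reads in GFAP replicates 1 to 5. Each population thus gave 43 reads, and the depth-scaled ratio was 0.964 (95% interval 0.617 to 1.51, counting error only). Its highest library was NG2 replicate 4 and its lowest were NG2 replicate 5 and GFAP replicates 4 and 5. The 5 cholinergic markers, Chat among them and 1 of them tested and not called, summed to at most 2.13 CPM in NG2 libraries and 3.23 CPM in GFAP libraries. Lhx8 reached at most 17.6% of the Lhx6 FPKM of its library in NG2 and 12.7% in GFAP cells.

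Isl1 (ENSMUSG00000042258; chromosome 13, 116298281 to 116309689, minus strand), the factor of striatal projection neurons and of the lateral ganglionic eminence, gave no direction. It had 10.7, 5.23, 1.88, 8.91 and 12.6 CPM in NG2 replicates 1 to 5, against 9.88, 11.7, 6.83, 6.37 and 3.61 CPM in GFAP replicates 1 to 5. The NG2 group held both the highest and the lowest library. The log2 fold change was 0.04 (SE 0.41), with a 95% interval of -0.77 to 0.84 from the SE.

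NG2 replicate 5, highest for Isl1, also had the highest sum of markers of the lateral ganglionic eminence and striatum, 284 CPM, and NG2 replicate 3, lowest for Isl1, had the lowest, 180.0 CPM. GFAP replicate 1 broke the order, with a sum of 281 CPM while 3 libraries had more Isl1. So did GFAP replicate 2, with 11.7 CPM of Isl1 at a sum of 226 CPM, and NG2 replicate 1, with 10.7 CPM at 235 CPM. Of the 12 tested genes of this list, 6 had positive and 6 negative fold changes, with a median of 0.03. None was called by edgeR (0, with 2 at an unadjusted p under 0.05) or by DESeq2, and voom called 2. Foxp1, a factor of striatal and cortical neurons, averaged 83.3 ± 9.89 CPM in NG2 libraries and 85.2 ± 9.65 CPM in GFAP libraries (SD, n = 5 each).

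**Figure D3:**
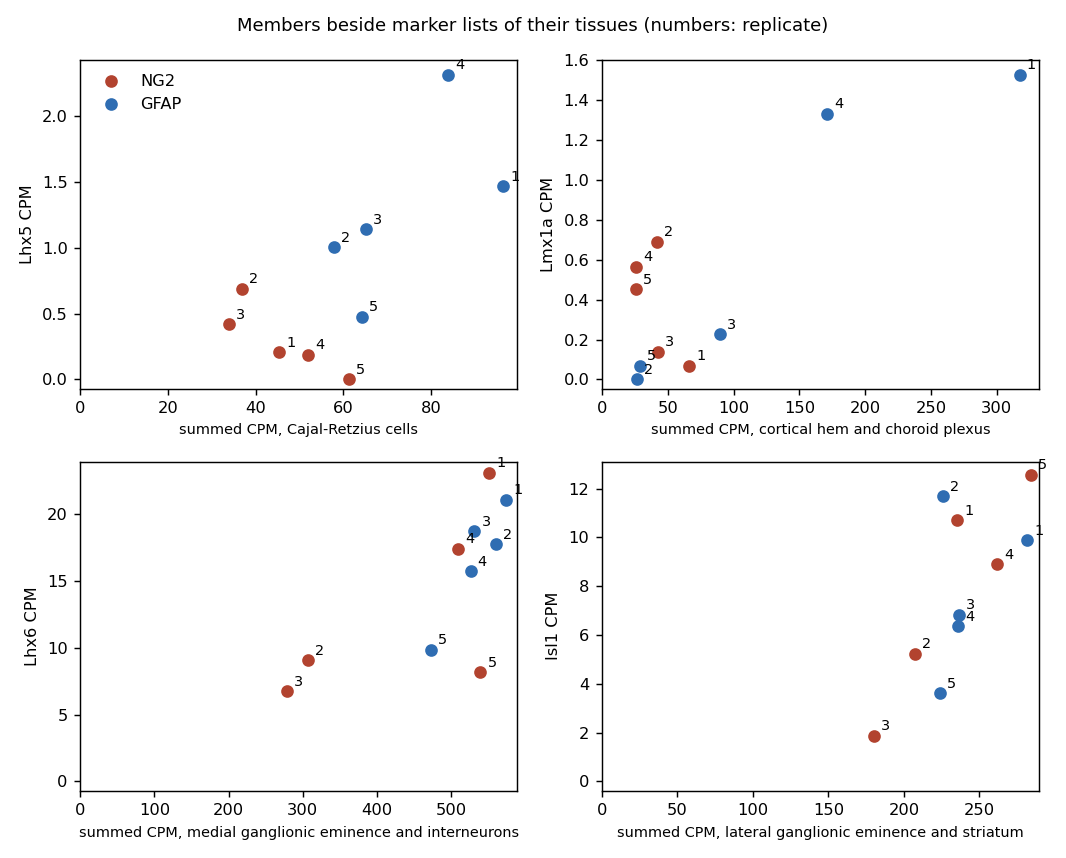
CPM of 4 members (vertical axes) against the summed CPM of a marker list (horizontal axes) in each library, with NG2 libraries in red, GFAP libraries in blue and the replicate number beside each point. GFAP replicates 1 and 4 stand apart for Lmx1a and Lhx5, NG2 replicates 2 and 3 are low in both Lhx6 and its list, and NG2 replicate 5 is low in Lhx6 with a list sum of 540 CPM.

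The cofactors that bind LIM domains were abundant, and 1 of them differed between populations. Of 10 tested cofactors and LIM-only genes, Ldb2 rose and 0 fell, 6 fold changes were positive and 4 negative, and the median was 0.03. Ldb2, an adaptor that joins LIM homeodomain factors, averaged 60.2 ± 12.7 CPM in NG2 libraries and 33.6 ± 4.45 CPM in GFAP libraries (SD, n = 5 each), with a log2 fold change of 0.84 (SE 0.15, edgeR adjusted p = 0.0429). Its NG2 libraries began at 43.4 CPM and its GFAP libraries ended at 40.7 CPM. With 1 library left out the call held without NG2 replicate 5 and was lost in the other 9 cases. The cofactor list was chosen with earlier results of these data known, so its 1 call is a description, beside 0.148% of all tested genes. Ldb1, the adaptor with the widest expression, is named after its values were seen and had a log2 fold change of -0.01.

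Genes of the dorsal telencephalon, the territory of Lhx2, gave 0 calls by edgeR in either direction among 12 tested, with 6 at an unadjusted p under 0.05, and DESeq2 called 4 and voom 3. Of their fold changes 3 were positive and 9 negative, with a median of -0.33. Fezf2, a factor of deep-layer projection neurons, is named for its level and was 1 of the 3 with a positive fold change (0.03). It averaged 178 ± 25.7 CPM in NG2 libraries and 173 ± 19.4 CPM in GFAP libraries (SD, n = 5 each), and does not stand for the 9 negative genes.

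Radial glia, the progenitors in which Lhx2 is known to act, gave 10 tested markers, all with negative fold changes and a median of -0.28, and 1 of them was called. Pard3, a polarity protein of the apical junctions, fell by 0.61 on the log2 scale (SE 0.11, edgeR adjusted p = 0.0429), with means of 41.7 ± 5.49 CPM in NG2 libraries and 63.7 ± 3.98 CPM in GFAP libraries (SD, n = 5 each). Its call held without NG2 replicate 1 or NG2 replicate 5 and was lost in the other 8 cases. The list was chosen with earlier results of these data known, so nothing is read from this call. Over all tested genes 0.148% were called. All 9 neuron markers analysed had positive fold changes, with a median of 0.35. Of these, 0 were called by edgeR, 6 had an unadjusted p under 0.05, and DESeq2 and voom called 5 each. Tubb3, the neuronal tubulin, averaged 1640 ± 183 CPM in NG2 libraries and 1289 ± 95.9 CPM in GFAP libraries (SD, n = 5 each), and Neurod6, a factor of cortical excitatory neurons, averaged 1968 ± 428 CPM in NG2 libraries and 1646 ± 212 CPM in GFAP libraries. These fold changes come from the same comparison as those of Lhx2 and Lhx9. The summed CPM of either list overlapped between the groups. Radial glia sums reached 1753 CPM in NG2 libraries and began at 1523 CPM in GFAP libraries. Neuron sums began at 6139 CPM in NG2 libraries and reached 6245 CPM in GFAP libraries. The part of these cell types in the levels of the members was not tested.

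Of 18 genes of the cortical hem and choroid plexus 7 were tested, with 6 negative fold changes and a median of -0.54, and of 9 Cajal-Retzius genes 8 were tested, with 7 negative and a median of -0.46. Of 16 diencephalic genes 2 were tested, with a median of -0.84. None of the 3 lists gave a call by edgeR (0 in each). Its unadjusted p was under 0.05 for 2 hem or choroid plexus, 4 Cajal-Retzius and 2 diencephalic genes. DESeq2 called 1 diencephalic gene and none of the others, and voom called 3 hem or choroid plexus, 3 Cajal-Retzius and 2 diencephalic genes. Reln, the signal secreted by Cajal-Retzius cells, ranged from 5.49 to 29.0 CPM in NG2 libraries and from 14.9 to 41.8 CPM in GFAP libraries. Tcf7l2, a Wnt effector of thalamic neurons, averaged 7.84 ± 2.95 CPM in NG2 libraries and 14.9 ± 5.26 CPM in GFAP libraries (SD, n = 5 each), without overlap between the groups.

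Markers of cell types other than neural cells were also measured. Microglial markers summed to between 28.8 and 370 CPM in NG2 libraries and between 43.6 and 166 CPM in GFAP libraries, all 9 with positive fold changes (median 0.95). Meningeal markers summed to between 3.75 and 17.1 CPM in NG2 libraries and between 10.4 and 22.5 CPM in GFAP libraries, with 6 of 6 tested genes negative (median -0.97). Endothelial and mural markers had a median of -0.17 over 7 tested genes and erythroid markers one of 0.24 over 6. The erythroid markers, globin genes among them, summed to between 244 and 504 CPM in NG2 libraries and between 242 and 445 CPM in GFAP libraries. None of the 4 lists gave a call by edgeR or DESeq2 (0 in each). At an unadjusted p under 0.05 edgeR gave 1 meningeal gene, and voom called 1 erythroid gene. The remaining LIM homeobox genes, Lhx3, Lhx4, Lmx1b and Isl2, were all under the filter and together summed to between 0 and 0.964 CPM in NG2 libraries and between 0.502 and 1.34 CPM in GFAP libraries.

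Genes whose log2 CPM followed a member most closely over the 10 libraries were ranked by Pearson's r among 12086 protein-coding genes, as a description without a test. For Lhx9 they were Sypl2 (r = 0.938), Fzd9 (r = 0.928) and Itpkb (r = 0.922). Fzd9, a Wnt receptor, averaged 9.92 ± 2.11 CPM in NG2 libraries and 22.9 ± 4.54 CPM in GFAP libraries (SD, n = 5 each), and was 1 of the 12 genes called lower by edgeR. Its call held in 3 of the 10 fits with 1 library left out. For Lhx2 they were Lamc1 (r = 0.949), a laminin chain, Znrf3 (r = 0.935), a ubiquitin ligase that removes Wnt receptors, and Zdhhc21 (r = 0.926), a palmitoyltransferase.

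For Lhx6 the closest were Rdh10 (r = 0.971), an enzyme of retinoic acid synthesis, Mkl2 (r = 0.949) and the glutamate receptor gene Grm5 (r = 0.941). For Isl1 they were Slc43a3 (r = 0.970), Tox2 (r = 0.950) and Meis1 (r = 0.924), a homeobox factor. For Lhx5 they included Xrn1 (r = 0.944) and Nbeal2 (r = 0.928). Without NG2 replicate 5, none of the 3 closest genes was the same for Lhx2, Lhx5 or Lhx9, 1 was the same for Lhx6 and 2 for Isl1. The points share libraries and depth, and for Lhx2, Lhx5 and Lhx9 the r includes the difference between populations.

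**Figure D4:**
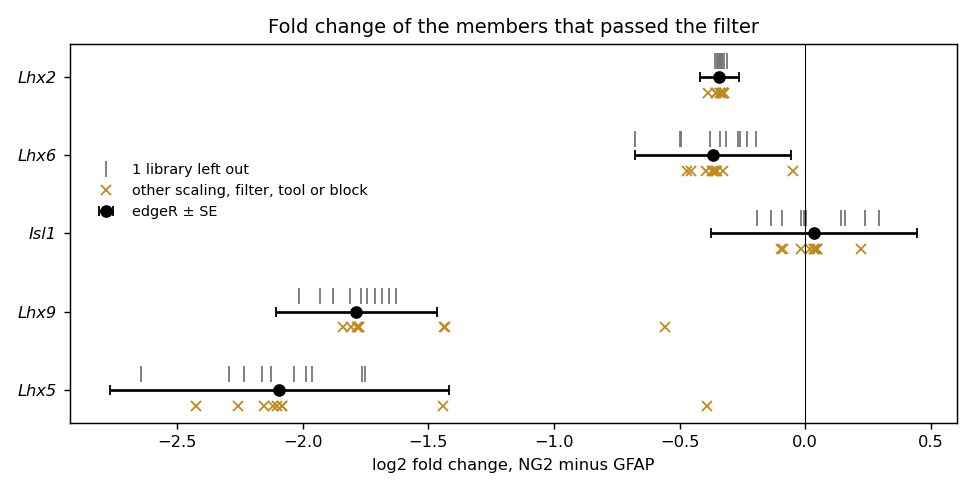
Log2 fold change, NG2 minus GFAP, of the 5 members that passed the filter, as edgeR's estimate ± SE (black), with 1 library left out (grey bars) and under other scalings, filters, tools or a replicate block (crosses). Lhx2 stays between -0.39 and -0.31, Lhx9 between -2.01 and -0.56 (the latter on log2 of FPKM plus 1), and Isl1 lies on both sides of 0.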

How the data were processed

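Poly(A) RNA of 10 sorted-cell libraries was taken up with the RNAqueous Micro kit, amplified by the SMARTer method and sequenced as paired ends of 150 bases, per the labels' protocols. Amplified reads without molecular identifiers are not independent molecules, so intervals from reads cover counting error only. The authors deposited whole-number read counts per gene, made with HISAT2 and featureCounts 1.5.0-p3 on GRCm38.p6 per the submitters' processing notes. The strand setting and the release of the annotation were not given in the sources used here. The authors' deposited FPKM divide those counts by gene length and library size. Their comparison columns hold, per the file headers, a mean signal per group, a log2 fold change and p-values before and after adjustment. The tool that made them is not named in the sources used here, but the fold changes of Lhx2 and Lhx9 equal those of DESeq2. Gene positions and lengths, in bases counted from 1, were used as deposited.

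Counts were tested with edgeR 4.0.16 (R 4.3.3), using the quasi-likelihood test, TMM scaling, the default expression filter by group (at least 0.653 CPM in 5 libraries) and Benjamini-Hochberg adjustment over all 16187 genes that passed, at a threshold of 0.05. Log2 fold changes are NG2 minus GFAP. Cspg4 and Gfap were also compared by an exact two-sided permutation test of mean log2 CPM. Alternatives used DESeq2 1.42.0, voom and limma-trend (limma 3.58.1; log2 of FPKM plus 1 or 0.1), other scalings and filters, a replicate block and single libraries left out. Tests were tried on simulated data. Likeness was Pearson's r of log2 CPM with a prior count of 2, over genes with a mean of at least 1 CPM. Promoter windows and transcripts came from RefSeq and GENCODE M21; figures used matplotlib 3.10.9.

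The members, the 15 marker lists with 156 genes and the tests were chosen with earlier results of these data known. Named genes were the 8 members, Cspg4, Gfap, from each list up to 3 genes past the threshold or otherwise the 2 with the highest mean CPM, and the 3 genes most like each tested member. Of 10 neuron markers listed, 9 were analysed, and not every named gene is given with its values. Replicates that share a number in the labels did not deviate together (r between -0.02 and 0.08), so numbers were not taken as pairs.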

Additional observations from a re-analysis of the deposited data

Results flagged for a closer look

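Marker sums and member levels were screened in 46 groups of 5 libraries for 1 library far from the other 4. Chance alone would give such a library in about 1 of 20 groups, and 4 groups had one. All 4 were marker sums in GFAP libraries, and none was a member. GFAP replicate 1 had 281 CPM of markers of the lateral ganglionic eminence and striatum, against 224 to 236 CPM in the other GFAP libraries, while its Isl1 stood inside the GFAP range. GFAP replicate 4 had 37.0 CPM of diencephalic markers, against 18.9 to 23.9 CPM in the other GFAP libraries, and it was the highest library for Lhx5 and Lhx9. Most of that sum was Tcf7l2 and Lef1, the 2 genes of the 16 that passed the filter. They averaged 14.9 and 8.67 CPM in GFAP libraries, where the whole list averaged 24.7 CPM, so the sum says little of the other diencephalic genes. GFAP replicate 2 had 2080 CPM of radial glia markers, against 1523 to 1622 CPM in the other GFAP libraries. The same library had 4831 CPM of neuron markers, against 5888 to 6245 CPM in the others, and its Lhx2, at 437 CPM, was below that of GFAP replicates 1 and 3.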

How the results depend on the processing

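Lhx9 kept its negative sign in all 19 alternatives that tested it, between -2.01 and -0.56, and was called in 8; Lhx2 kept it in all 20, between -0.39 and -0.31, and was called in 2, DESeq2 and voom. Lhx5 (-2.64 to -0.39) and Lhx6 (-0.68 to -0.05) also kept their signs, and Lhx5 was called in 1. The -0.56 of Lhx9 and the -0.39 of Lhx5 came from log2 of FPKM plus 1. There the added 1 exceeds the mean FPKM of both genes in either group and shrinks the fold change. With 0.1 added they were -1.43 for Lhx9 and -1.44 for Lhx5. Isl1 turned to -0.017 and -0.088 on log2 of FPKM plus 1 and plus 0.1 and to -0.10 with the replicate block, and ranged from -0.19 to 0.29 with 1 library left out. The number of members called was 1 in the reported test, 2 with DESeq2, 3 with voom, 0 on either FPKM scale, 0 with 5 CPM in 5 libraries (Lhx9 and Lhx5 were then not tested), 0 with the replicate block and 0 to 1 with 1 library left out. All genes called numbered 24 in the reported test, 95 without a filter, 343 with DESeq2, 1441 with voom, 12 on either FPKM scale, 1 with the block and 3 to 117 with 1 library left out, 117 being without NG2 replicate 5. Companion genes called numbered 2, and 7, 13, 24, 0 and 0 in those same settings, with 0 to 5 when 1 library was left out. Under DESeq2 133 genes (1.01%) were called lower and 343 in all (2.61%).

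The replicate block, which takes equal replicate numbers as pairs, moved Cspg4 from a called fold change to one of 2.66 that was not called (edgeR adjusted p = 0.0574), and left Lhx9 at -1.78, not called. With the filter removed calls were 58 higher and 37 lower, with DESeq2 210 and 133, with voom 584 and 857, on FPKM 9 and 3, and without NG2 replicate 5 they were 70 and 47, beside 12 and 12. The causes were not tested. Of the 3 genes most like a member, the number shared without NG2 replicate 5 was 0 for Lhx2, Lhx5 and Lhx9, 1 for Lhx6 and 2 for Isl1. Depth limits Lhx1, Lhx5, Lhx8 and Lmx1a, which had at most 33 reads in a library.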

Other observations

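Outside the comparison, the spread of the members among libraries of 1 population differed between genes. The coefficient of variation of CPM was 3.04% among NG2 and 5.46% among GFAP libraries for Lhx2, 38.7% among NG2 and 34.1% among GFAP libraries for Lhx9, 54.7% among NG2 and 25.5% among GFAP libraries for Lhx6, and 54.8% among NG2 and 41.1% among GFAP libraries for Isl1. The RNA neighbour Lhx1os, which starts 124 bases from Lhx1 on the other strand and is named after its values were seen, had 49 reads in NG2 and 55 in GFAP libraries, while Lhx1 had 28 in NG2 and 61 in GFAP libraries.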
